A study of Mus musculus with 18 samples.

Results

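The genes described here copy DNA and supply its building blocks. They were listed, 44 in all, by their known roles, from the proteins that mark replication origins to the enzymes that make deoxynucleotides. Earlier results of these data were known when the list was made. Of the 44, 43 were found among 18193 mouse genes, and Chaf1a was not analysed here. Where several probe sets were annotated with a gene's symbol alone, the brightest on average across the 18 arrays stood for the gene. Levels are log2 values made with RMA, and every difference given is on that log2 scale. The arrays measured RNA of lung and lung tumours of B6C3F1/N mice in an inhalation study of cobalt metal dust, with 6 arrays each of vehicle control lung, spontaneous tumours and tumours of cobalt-treated mice. Mice entered the study at 5 to 6 weeks of age, and males and females breathed aerosol of 1.25 to 5 mg/m3, or none as controls, for 6 hours plus 12 minutes a day, on 5 days a week, for up to 105 weeks. No label gives the dose, sex or age at sampling of a single array. The spontaneous tumours carry no treatment label. Tumours were dissected away from the lung around them, so the tumour and control samples differ in how they were cut as well. Whether arrays of a group are separate animals is not stated, so the tests judge differences against a spread between samples that may be technical in part.

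Before S phase, the origin recognition complex, CDC6 and CDT1 load rings of the MCM proteins onto DNA, a step called licensing, and geminin holds CDT1 in check. In S phase the kinase CDC7 with its partner DBF4 starts the rings as helicases, together with CDC45 and the GINS complex. Polymerases, a sliding clamp, its loader and single-strand binding proteins then copy the DNA. Many of these genes are transcribed at the G1/S boundary under E2F factors, and in adult lung, where few cells divide, they are known as marks of cycling cells.

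The promoters of 4 genes are shown because E2F factors are the textbook regulators of this set. Among the genes whose promoter held an E2F-type motif, these had the largest mean difference over both tumour groups. Each runs from 250 bases before to 50 bases after the transcription start in RefSeq on GRCm38.p6, 5′ to 3′ on the gene's strand, and capitals mark the motif TTTNGCGC.
Rfc3 (chr5:151651159-151651458, minus strand): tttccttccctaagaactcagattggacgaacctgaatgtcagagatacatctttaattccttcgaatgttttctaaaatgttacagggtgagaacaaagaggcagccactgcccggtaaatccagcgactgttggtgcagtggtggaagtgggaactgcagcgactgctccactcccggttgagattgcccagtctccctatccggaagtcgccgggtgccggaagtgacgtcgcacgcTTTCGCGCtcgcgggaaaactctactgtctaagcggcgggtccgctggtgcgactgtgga
Cdt1 (chr8:122567765-122568064, plus strand): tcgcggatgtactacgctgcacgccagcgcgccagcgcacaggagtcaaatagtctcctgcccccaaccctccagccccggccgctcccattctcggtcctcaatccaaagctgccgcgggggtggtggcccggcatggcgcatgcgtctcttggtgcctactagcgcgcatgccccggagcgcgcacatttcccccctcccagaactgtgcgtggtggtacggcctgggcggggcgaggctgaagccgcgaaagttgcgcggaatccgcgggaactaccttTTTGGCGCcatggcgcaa
Uhrf1 (chr17:56304063-56304362, plus strand): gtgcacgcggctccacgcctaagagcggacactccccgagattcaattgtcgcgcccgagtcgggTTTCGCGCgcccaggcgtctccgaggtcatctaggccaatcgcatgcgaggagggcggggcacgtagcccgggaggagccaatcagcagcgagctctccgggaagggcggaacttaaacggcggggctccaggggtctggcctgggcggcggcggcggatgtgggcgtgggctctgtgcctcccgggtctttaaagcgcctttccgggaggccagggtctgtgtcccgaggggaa
Mcm7 (chr5:138171834-138172133, minus strand): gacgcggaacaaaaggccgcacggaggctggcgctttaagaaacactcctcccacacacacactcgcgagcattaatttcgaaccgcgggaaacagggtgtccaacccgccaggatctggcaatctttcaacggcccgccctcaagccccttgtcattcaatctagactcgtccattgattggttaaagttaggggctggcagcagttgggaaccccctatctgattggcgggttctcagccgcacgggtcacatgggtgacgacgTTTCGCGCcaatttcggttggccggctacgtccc
Counted from the transcription start as base 1, with no base 0, the motif began at base -10 in Rfc3, -185 in Uhrf1, 17 in Mcm7 and 33 in Cdt1. Promoters were given for 37 of the 43 genes, 44 promoters in all. TTTNGCGC, searched on both strands, was in 10 of these 44 (22.7%), against 1.38% of all 32851 promoters in the table and 1.98% of the 18109 promoters of tested genes. The genes holding it were Cdt1, Mcm3, Mcm5, Mcm6, Mcm7, Orc1, Pola1, Rfc3, Lig1 and Uhrf1. CCAAT, the NF-Y-type motif, was in 56.8% of the 44 promoters, in 37.4% of all and in 37.4% of those of tested genes. Its first base can be the last of TTTNGCGC, as in Mcm7. The CHR-type motif TTTGAA was in 18.2%, 17.9% and 13.4%. Median GC content was 61.3% in the 44 promoters, 52.7% in all promoters and 58.3% in those of tested genes. These letter matches are descriptions, not measured binding. Of the 10 genes with TTTNGCGC, 8 were higher in spontaneous tumours, with a median difference of 1.16, and 6 were higher in cobalt tumours, with a median of 0.60. Of the 27 without it, 15 and 10 were higher, with medians of 0.53 and 0.27. Over all genes tested, 16.4% were higher in spontaneous and 14.7% in cobalt tumours.

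The arrays were alike in scale, with medians of 6.32 to 6.45. Mean epithelial marker levels were 10.22 to 10.40 in control lung, 11.20 to 12.41 in spontaneous and 11.06 to 12.15 in cobalt tumours, and 7 of 8 markers were higher in each tumour group. Endothelial markers averaged 11.16 to 11.55, 7.75 to 9.22 and 7.59 to 10.36, and 8 of 8 were lower in each. Alveolar type 2 markers averaged 12.52 to 12.81, 12.13 to 13.73 and 13.38 to 13.57, with 3 and 5 of 7 higher, and the defining gene Sftpc was bright on all 18 arrays. T and NK cell markers averaged 6.80 to 7.36, 5.93 to 7.44 and 5.83 to 6.68, with 4 and 6 of 7 lower. For B and plasma cells the averages were 7.88 to 10.83, 7.12 to 9.73 and 6.75 to 8.88, with 2 of 5 lower in each. Macrophage markers averaged 10.14 to 10.87, 10.51 to 12.26 and 10.15 to 11.59, with 3 of 8 higher in spontaneous tumours and 1 higher and 2 lower in cobalt tumours. For red cell precursors the averages were 6.61 to 7.39, 5.38 to 6.53 and 5.52 to 6.67, with 1 of 4 lower in each. Beside these marker counts, 16.4% of all genes were higher and 18.2% lower in spontaneous tumours, and 14.7% and 19.3% in cobalt tumours. Fewer cells of a type and less RNA per cell cannot be told apart in bulk tissue, and the part of these shifts in the differences below was not tested. Xist, an RNA of female cells, was above 10 on 6 control, 2 spontaneous and 4 cobalt arrays, and Y-linked RNA, of male cells, was high on the others. Control lung 6 carries a description as a spontaneous tumour, while its title, source and group say control, and its endothelial mean of 11.35 lies within the range of the other control lungs. Cobalt tumour 6, at 10.36, had the endothelial mean nearest to control lung of the 12 tumours.

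Most of the replication genes were higher in spontaneous tumours than in control lung. Of the 43 genes, 26 passed upward at an adjusted p under 0.05 (limma, Benjamini-Hochberg over all 18193 genes), as did 16.4% of all genes. The count of lower genes was 0, against 18.2% of all genes. At an unadjusted p under 0.05, limma had 1 lower gene, Rpa1, and an exact permutation test with the same adjustment called 25 of the 43 higher and 1 lower. The median difference was 0.61, against -0.03 over all genes, and 39 of 43 differences were above 0. In 19 genes all 6 spontaneous tumours lay above all 6 control lungs, as in 9.21% of all genes, and in 0 they all lay below, as in 11.9%.

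In cobalt tumours 16 of the 43 genes were higher, against 14.7% of all genes, and 2 were lower, against 19.3%. The median difference was 0.30, against -0.03 over all genes. All cobalt tumours lay above all control lungs in 4 genes, Orc6, Dbf4, Rfc3 and Rfc4 (8.1% of all genes), and below them in 1, Rpa1 (10.8%). Of the 43 genes, 15 were higher in both tumour groups, 11 in spontaneous tumours alone and 1, Orc1, in cobalt tumours alone. The comparisons share their 6 control lungs, and a call in 1 group alone is no test of a difference between the groups. On the arrays with Xist above 10, 18 of the 43 genes were higher in the 2 spontaneous tumours (11.1% of all genes) and 10 in the 4 cobalt tumours (12.2%), with medians of 0.74 and 0.28. Those 2 were spontaneous tumours 4 and 6, whose averages over the 43 genes were 0.39 and 1.25 above the control mean.

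**Figure D1:**
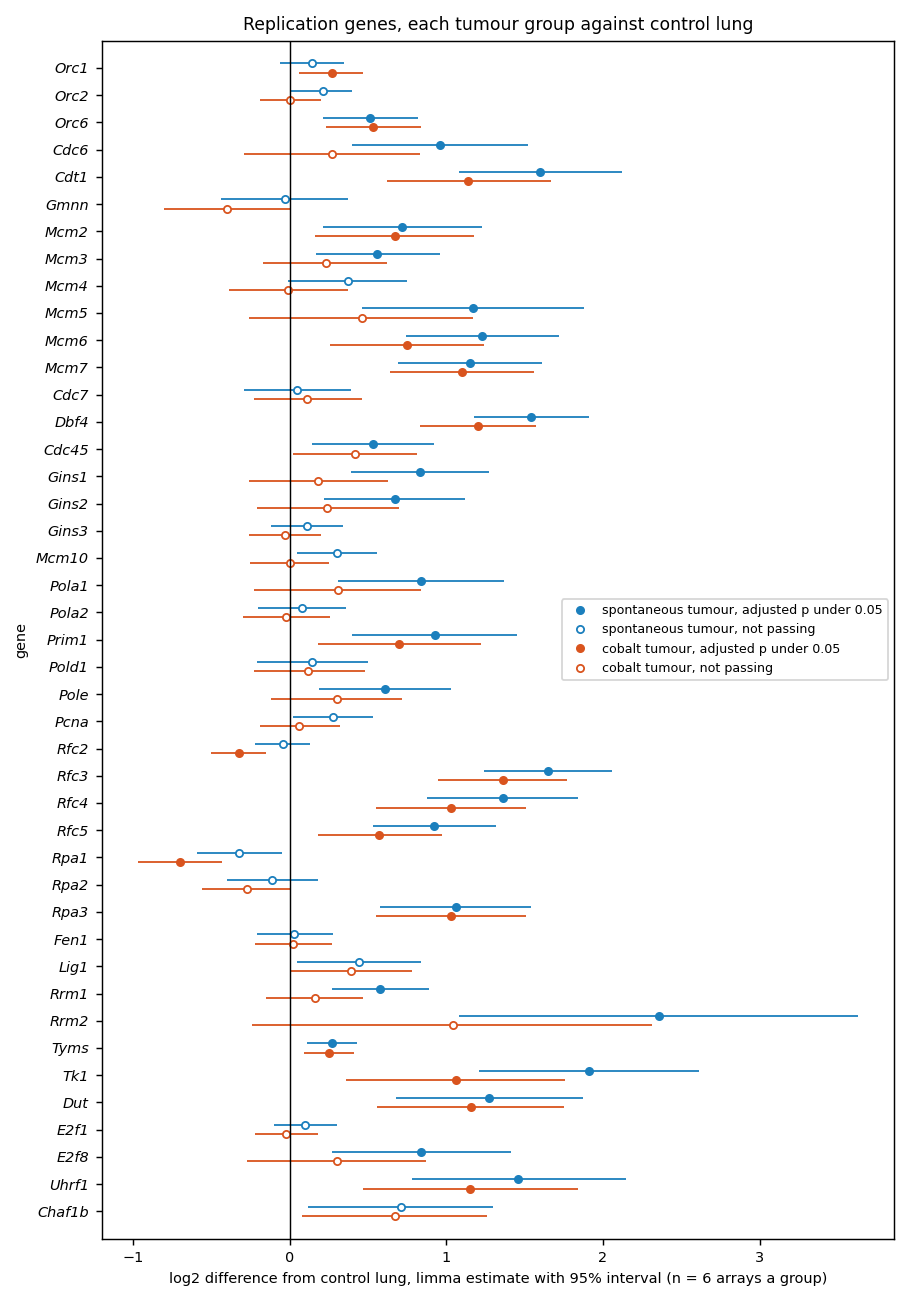
Log2 difference from control lung (horizontal axis) of 43 replication genes (vertical axis, in order of role), as limma estimates with 95% intervals, for spontaneous tumours (blue) and cobalt tumours (orange), 6 arrays a group. Filled points passed an adjusted p under 0.05: 26 genes were higher in spontaneous tumours, and 16 were higher and 2 (Rfc2 and Rpa1) lower in cobalt tumours.

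Of the 12 licensing genes, 8 were higher in spontaneous and 6 in cobalt tumours, against 16.4% and 14.7% of all genes. Cdt1, which loads the MCM rings, had the largest differences. The lowest, median and highest log2 levels of Cdt1 were 7.37, 7.83 and 8.38 in control lung, 8.83, 9.61 and 9.97 in spontaneous tumours and 8.12, 9.14 and 9.43 in cobalt tumours. The spontaneous tumours all lay above the controls, and so did every cobalt tumour but number 6. By limma the differences were 1.60 ± 0.25 (SE, adjusted p = 8.85e-05) and 1.14 ± 0.25 (SE, adjusted p = 0.00163). Geminin, encoded by Gmnn, had differences of -0.03 (adjusted p = 0.913) and -0.40 (adjusted p = 0.121). Gmnn levels (lowest, median, highest, log2) were 8.07, 8.26 and 8.45 in control lung, 7.78, 8.13 and 9.10 in spontaneous and 7.24, 7.97 and 8.14 in cobalt tumours. Spontaneous tumour 6 was above every control lung, and 5 of 6 cobalt tumours and 3 of 6 spontaneous tumours were below every one.

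The MCM helicase subunits were unequal. Mcm6 differed by 1.23 ± 0.23 (SE, adjusted p = 0.000525) in spontaneous and 0.75 ± 0.23 (SE, adjusted p = 0.0176) in cobalt tumours. For Mcm7 the values were 1.15 ± 0.22 (SE, adjusted p = 0.000549) and 1.10 ± 0.22 (SE, adjusted p = 0.000772). Control lung had Mcm5 at 7.27, 7.75 and 8.02 (lowest, median, highest log2 level), spontaneous tumours at 8.28, 8.78 and 9.56, and cobalt tumours at 6.94, 8.43 and 9.00. All spontaneous tumours had more Mcm5 than any control lung, while cobalt tumours 4 and 6 had less than any control lung and the other 4 had more. Its difference was 1.17 ± 0.34 (SE, adjusted p = 0.0122) in spontaneous tumours and 0.46 (adjusted p = 0.33) in cobalt tumours. Mcm3 was higher in spontaneous tumours alone, by 0.56 (adjusted p = 0.0276). Its call ended without control lung 1 (0.53, adjusted p = 0.0546), spontaneous tumour 5 (0.47, adjusted p = 0.0658) or spontaneous tumour 6 (0.46, adjusted p = 0.0669). Mcm2 was higher in both groups, by 0.72 (adjusted p = 0.0273) and 0.67 (adjusted p = 0.0392). The first call ended without control lung 1 (0.68, adjusted p = 0.0542) or 4 (0.70, adjusted p = 0.0502). The cobalt call ended without any 1 of control lungs 1, 2, 4, 5 and 6 and cobalt tumours 1, 2, 3 and 5, where it was 0.58 to 0.70 with adjusted p from 0.0524 to 0.0893.

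Probe sets of an MCM gene did not always give the same size. A second Mcm2 probe set, dimmer on average (7.40 against 9.25), gave 1.78 ± 0.37 (SE, adjusted p = 0.00131) and 1.51 ± 0.37 (SE, adjusted p = 0.00442). Mcm4 did not pass, at 0.37 (adjusted p = 0.126) and -0.01 (adjusted p = 0.971), but its second probe set gave 1.10 ± 0.26 (SE, adjusted p = 0.00354) and 0.73 ± 0.26 (SE, adjusted p = 0.0416). Over the 34 genes with several probe sets, all probe sets of a gene had the same sign in 23 for spontaneous and 22 for cobalt tumours.

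CDC6, which helps CDT1 load the rings, differed by 0.96 ± 0.26 (SE, adjusted p = 0.00899) in spontaneous tumours and 0.27 (adjusted p = 0.475) in cobalt tumours. The lowest, median and highest log2 levels of Cdc6 were 4.95, 5.11 and 5.33 in control lung, 5.35, 6.04 and 6.92 in spontaneous tumours and 4.59, 5.57 and 5.94 in cobalt tumours. Its spontaneous levels spread widely and stayed above the controls, and cobalt tumours 4 and 6 were below every control lung. Among the origin recognition subunits Orc6 was higher in both groups, by 0.51 (adjusted p = 0.00991) and 0.53 (adjusted p = 0.00778). Orc2 did not pass, at 0.21 (adjusted p = 0.0977) and 0.00 (adjusted p = 0.984). Orc1, at 0.14 (adjusted p = 0.281) and 0.27 (adjusted p = 0.043), passed in cobalt tumours alone, and that call ended on leaving out any 1 of 10 arrays, control lungs 2 to 6, spontaneous tumour 3 and cobalt tumours 1, 2, 3 and 5, with 0.21 to 0.28 and adjusted p up to 0.104.

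Of 7 genes of origin firing, 4 were higher in spontaneous tumours (16.4% of all genes) and 1, Dbf4, in cobalt tumours. That 1 is 14.3% of the 7, near the 14.7% of all genes. DBF4 is the subunit that switches on the kinase CDC7. Dbf4 levels (lowest, median, highest, log2) were 6.43, 6.71 and 7.09 in control lung, 7.97, 8.24 and 8.45 in spontaneous and 7.43, 7.88 and 8.58 in cobalt tumours. All 12 tumours lay above all controls. The differences were 1.54 ± 0.17 (SE, adjusted p = 4.25e-06) and 1.20 ± 0.17 (SE, adjusted p = 4.75e-05). The kinase gene Cdc7 itself differed by 0.05 (adjusted p = 0.841) and 0.11 (adjusted p = 0.636). Control lung had Cdc7 at 6.15, 6.31 and 6.58 (lowest, median, highest log2 level), spontaneous tumours at 6.09, 6.37 and 6.71, and cobalt tumours at 5.92, 6.39 and 6.94. Spontaneous tumour 6 and cobalt tumours 2 and 3 lay above every control lung, spontaneous tumour 3 and cobalt tumours 4 and 6 below every one, and the other 6 tumours within the control range. A second Dbf4 probe set was dim, with a mean of 4.10, and gave -0.05 and 0.01.

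The helicase partners were called in spontaneous tumours alone. Gins1 differed by 0.83 (adjusted p = 0.00492) there and 0.18 (adjusted p = 0.543) in cobalt tumours, Gins2 by 0.67 (adjusted p = 0.0223) and 0.24 (adjusted p = 0.421), and Cdc45 by 0.53 (adjusted p = 0.0349) and 0.42 (adjusted p = 0.0953). A second, dim Gins1 probe set with a mean of 4.27 gave -0.03 and 0.04. The Gins2 call ended without control lung 6 (0.58, adjusted p = 0.0552), spontaneous tumour 2 (0.59, adjusted p = 0.0506) or spontaneous tumour 6 (0.51, adjusted p = 0.0506). The Cdc45 call ended without any 1 of control lungs 4, 5 and 6 and spontaneous tumours 2, 5 and 6, at 0.44 to 0.50 with adjusted p from 0.0664 to 0.0830. Gins3 and Mcm10 did not pass, at 0.11 and 0.30 in spontaneous tumours and -0.03 and 0.00 in cobalt tumours.

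**Figure D2:**
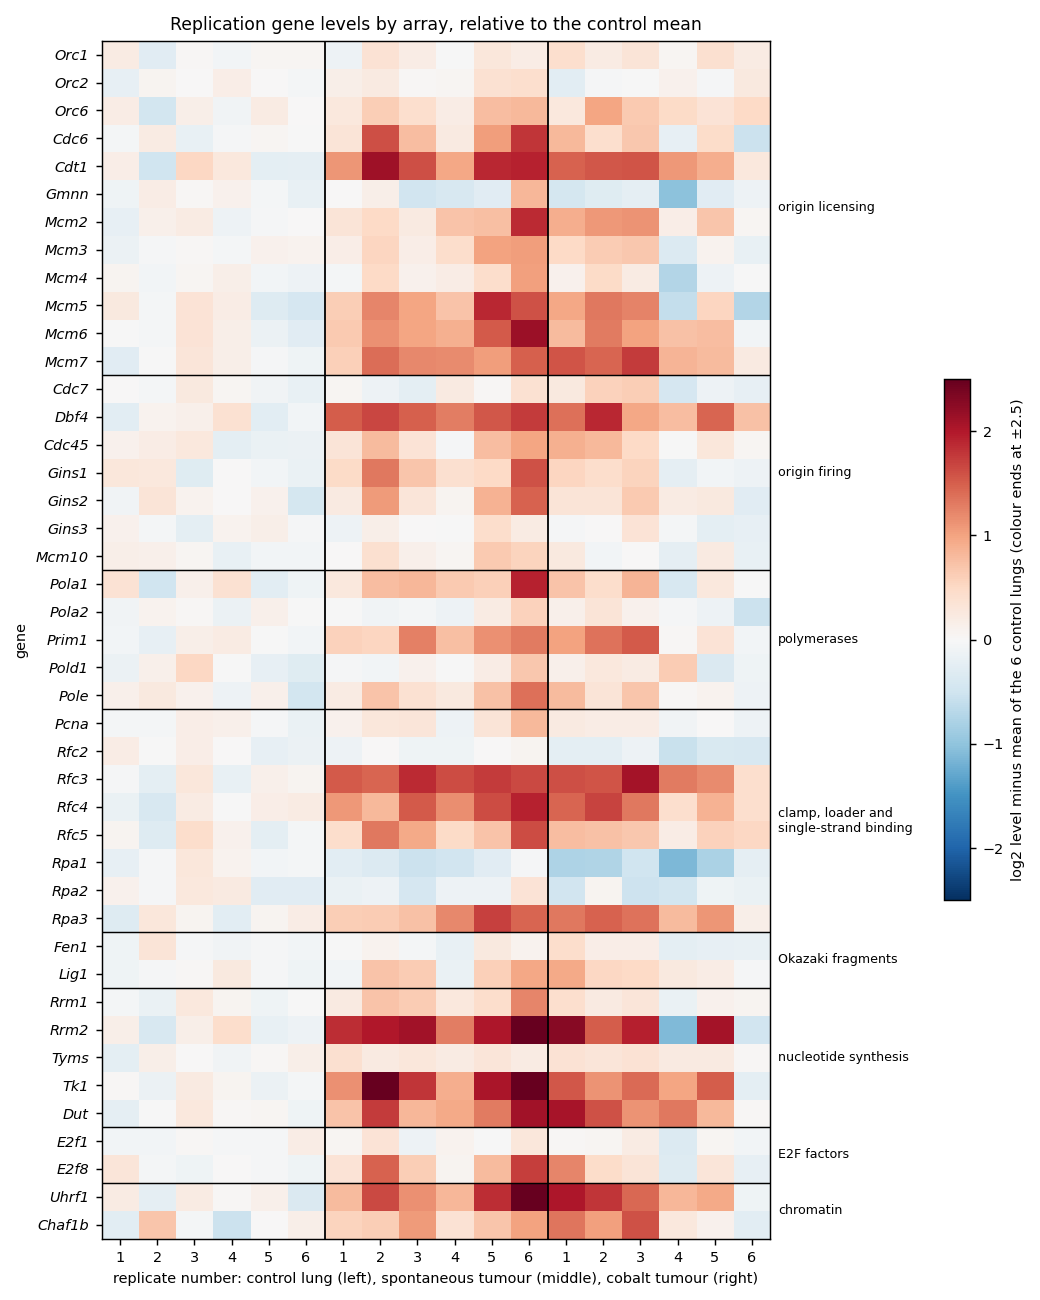
Log2 level of each of 43 replication genes (rows, in order of role) on each of 18 arrays (columns) minus the mean of the 6 control lungs, with red above and blue below that mean and colours ending at ±2.5. Rrm2, Tk1, Cdt1, Rfc3 and Dbf4 are red in nearly all tumours, Rpa1 is blue in cobalt tumours, spontaneous tumour 6 is the reddest column with a mean of 1.25, and cobalt tumours 4 and 6 average 0.07 and -0.05.

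Of 5 polymerase genes, 3 were higher in spontaneous tumours and 1 in cobalt tumours. Polymerase alpha with primase starts each new strand. Its primase subunit Prim1 had the largest differences, 0.93 ± 0.25 (SE, adjusted p = 0.00765) and 0.70 ± 0.25 (SE, adjusted p = 0.0372). The lowest, median and highest log2 levels of Prim1 were 6.90, 7.07 and 7.30 in control lung, 7.64, 8.05 and 8.40 in spontaneous tumours and 7.03, 7.77 and 8.65 in cobalt tumours. Spontaneous tumours did not overlap the controls, and cobalt tumours did. The cobalt call ended without any 1 of control lungs 1, 2, 5 and 6 and cobalt tumours 1, 2 and 3, at 0.53 to 0.70 with adjusted p from 0.0589 to 0.0927. Pola1, the catalytic subunit, passed in spontaneous tumours alone, at 0.84 (adjusted p = 0.0157) against 0.31 (adjusted p = 0.388). Pole, of the leading-strand polymerase, likewise had 0.61 (adjusted p = 0.0246) and 0.30 (adjusted p = 0.269), and its call ended without control lung 6 (0.52, adjusted p = 0.0613) or spontaneous tumour 6 (0.46, adjusted p = 0.0551). The smallest differences were those of Pola2, 0.08 (adjusted p = 0.67) and -0.02 (adjusted p = 0.919). Pola2 levels (lowest, median, highest, log2) were 7.57, 7.73 and 7.83 in control lung, 7.58, 7.69 and 8.29 in spontaneous and 7.17, 7.75 and 8.03 in cobalt tumours. Pold1, of the lagging-strand polymerase, did not pass either, at 0.14 and 0.12.

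The clamp loader and the single-strand binding complex each split into subunits that rose and subunits that did not. The RFC proteins form 1 ring that opens the PCNA clamp. Control lung had Rfc3 at 6.08, 6.35 and 6.61 (lowest, median, highest log2 level), spontaneous tumours at 7.79, 7.97 and 8.21, and cobalt tumours at 6.76, 7.77 and 8.42. All 12 tumours lay above all controls. Rfc3 differed by 1.65 ± 0.19 (SE, adjusted p = 6.65e-06) and 1.36 ± 0.19 (SE, adjusted p = 4.13e-05), Rfc4 by 1.36 (adjusted p = 0.000174) and 1.03 (adjusted p = 0.00184), and Rfc5 by 0.92 (adjusted p = 0.00092) and 0.57 (adjusted p = 0.0239). The cobalt call of Rfc5 ended without control lung 2 (0.51, adjusted p = 0.0576), control lung 5 (0.52, adjusted p = 0.0537) or cobalt tumour 1 (0.53, adjusted p = 0.0522). Rfc2, in contrast, differed by -0.04 (adjusted p = 0.734) and fell in cobalt tumours, by -0.32 (adjusted p = 0.00565). The lowest, median and highest log2 levels of Rfc2 were 9.30, 9.50 and 9.68 in control lung, 9.38, 9.46 and 9.56 in spontaneous tumours and 8.95, 9.18 and 9.38 in cobalt tumours. Of the cobalt tumours, 5 were below every control lung. A second, dimmer Rfc2 probe set (mean 6.58 against 9.38) gave -0.05 (adjusted p = 0.819) in cobalt tumours. The mean of the Rfc2 probe sets gave -0.18 (adjusted p = 0.119), so the fall rests on the brightest probe set.

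RPA1, RPA2 and RPA3 bind single-stranded DNA as a trimer. The gene of its smallest subunit, Rpa3, was higher in both groups, by 1.06 ± 0.23 (SE, adjusted p = 0.00153) and 1.03 ± 0.23 (SE, adjusted p = 0.00181). Rpa1, of the largest subunit, was lower in cobalt tumours. Rpa1 levels (lowest, median, highest, log2) were 10.57, 10.75 and 11.06 in control lung, 10.26, 10.48 and 10.76 in spontaneous and 9.65, 10.02 and 10.55 in cobalt tumours. All 6 cobalt tumours lay below all controls, and 5 of 6 spontaneous tumours did too. The differences were -0.32 ± 0.13 (SE, adjusted p = 0.0618), which did not pass, and -0.70 ± 0.13 (SE, adjusted p = 0.000414). Rpa2 did not pass, at -0.11 (adjusted p = 0.573) and -0.27 (adjusted p = 0.137).

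The sliding clamp gene Pcna, bright on every array, did not pass in either group. Control lung had Pcna at 11.45, 11.57 and 11.78 (lowest, median, highest log2 level), spontaneous tumours at 11.47, 11.90 and 12.41, and cobalt tumours at 11.48, 11.70 and 11.83. Its differences were 0.28 (adjusted p = 0.0874) and 0.06 (adjusted p = 0.734), although 4 of 6 tumours of the spontaneous group and 3 of 6 of the cobalt group exceeded every control lung. RMA values of very bright or very dim probe sets can understate a fold, which was not tested here.

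Neither gene of Okazaki fragment joining passed. Lig1, the ligase, had 0.44 (adjusted p = 0.0739) and 0.39 (adjusted p = 0.119), and Fen1, the flap nuclease, 0.03 (adjusted p = 0.858) and 0.02 (adjusted p = 0.897). The lowest, median and highest log2 levels of Fen1 were 9.89, 9.94 and 10.31 in control lung, 9.81, 10.03 and 10.24 in spontaneous tumours and 9.76, 9.98 and 10.44 in cobalt tumours. The Fen1 result depended on the probe set. The brighter one, whose name carries the suffix for cross-hybridising probes, was level across the groups. The other, with a mean of 7.52 against 10.01, gave 1.19 ± 0.17 (SE, adjusted p = 4.95e-05) and 0.76 ± 0.17 (SE, adjusted p = 0.00238). The suffix is also carried by the probe sets used for Rrm2, Mcm3, Mcm5 and Pold1 and by the second Mcm4 probe set. A fit without marked probe sets also left out those used for Mcm2, Mcm7 and Gins2.

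All 5 genes of deoxynucleotide supply were higher in spontaneous tumours (16.4% of all genes), and 3 of them, Tk1, Dut and Tyms, in cobalt tumours (14.7%). RRM1 and RRM2 form ribonucleotide reductase, which makes deoxynucleotides from ribonucleotides, and RRM2 is its subunit made mainly in S phase. Rrm2 levels (lowest, median, highest, log2) were 5.85, 6.25 and 6.69 in control lung, 7.52, 8.26 and 11.12 in spontaneous and 5.13, 7.97 and 8.53 in cobalt tumours. Spontaneous tumour 6, at 11.12, stood far above the other 5, which reached 8.35. In the cobalt group 4 tumours lay above every control lung, between 7.76 and 8.53, and tumours 4 and 6 lay below every control lung, at 5.13 and 5.77. The differences were 2.36 ± 0.61 (SE, adjusted p = 0.00581), a 5.12-fold level, and 1.04 ± 0.61 (SE, adjusted p = 0.21), which did not pass. The Rrm2 probe set used carries the suffix for cross-hybridising probes. Without probe sets so marked, the difference in spontaneous tumours was 1.40 (limma, adjusted p = 0.0263). Rrm1 differed by 0.58 (adjusted p = 0.00474) and 0.16 (adjusted p = 0.436).

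Thymidine kinase 1 is the salvage enzyme for thymidine. Control lung had Tk1 at 5.76, 5.91 and 6.13 (lowest, median, highest log2 level), spontaneous tumours at 6.82, 7.83 and 8.92, and cobalt tumours at 5.66, 7.18 and 7.46. Cobalt tumour 6, at 5.66, lay below every control lung, and the other 11 tumours lay above every one. Tk1 differed by 1.91 ± 0.33 (SE, adjusted p = 0.000255) and 1.06 ± 0.33 (SE, adjusted p = 0.0198). Dut, whose product clears dUTP and so keeps uracil out of DNA, had 1.27 ± 0.28 (SE, adjusted p = 0.00198) and 1.16 ± 0.28 (SE, adjusted p = 0.00398). The lowest, median and highest log2 levels of Dut were 6.39, 6.62 and 6.88 in control lung, 7.33, 7.74 and 8.72 in spontaneous tumours and 6.65, 7.83 and 8.67 in cobalt tumours. Cobalt tumour 6 alone lay within the control range of Dut. Tyms, the maker of dTMP, differed by 0.27 (adjusted p = 0.00967), the smallest of the 5 in spontaneous tumours, and by 0.25 (adjusted p = 0.0153) in cobalt tumours. All 4 Tyms probe sets were dim, with means of 4.24 to 4.63, and 2 of them had differences below 0 in spontaneous tumours.

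**Figure D3:**
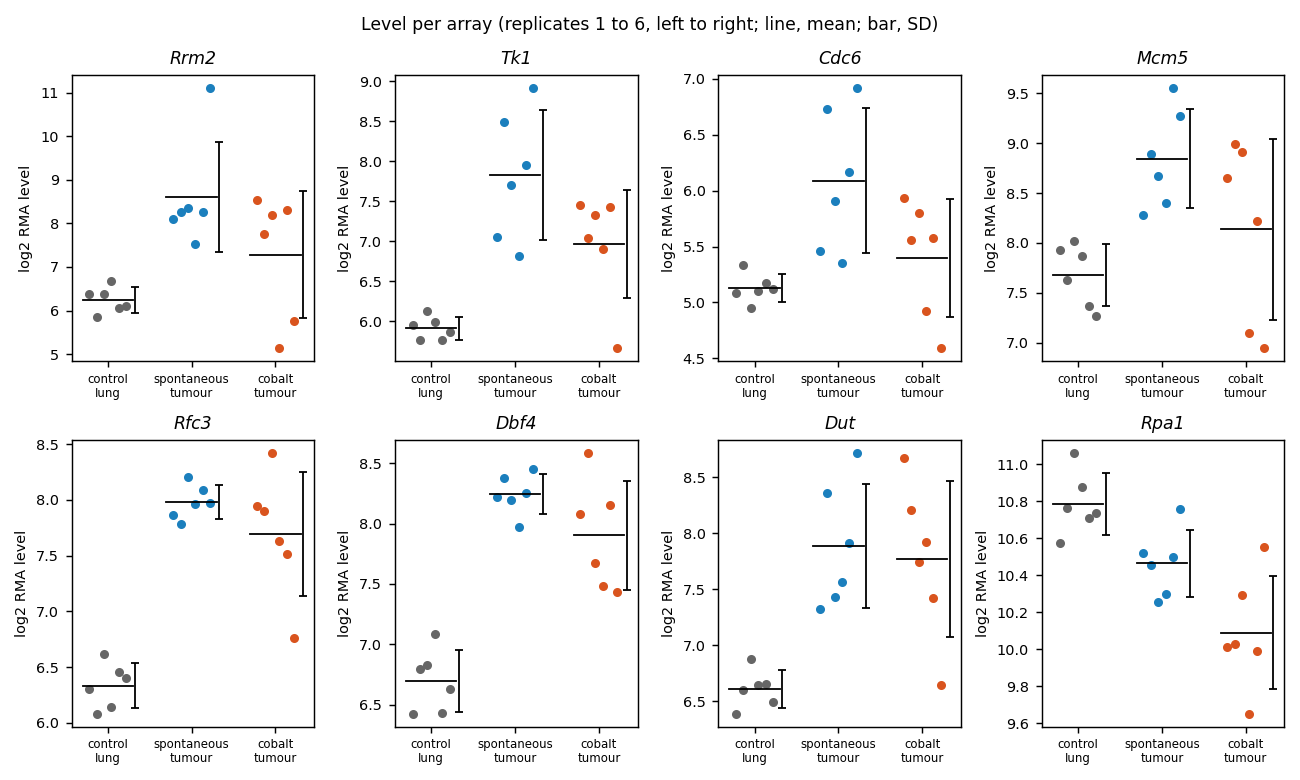
Log2 RMA level (vertical axis) of 8 genes on each array, by group, with replicates 1 to 6 from left to right, a line at the mean and a bar of 1 SD (n = 6). Rfc3 and Dbf4 separate all tumours from control lung, Rpa1 runs downward, and in Rrm2, Cdc6 and Mcm5 cobalt tumours 4 and 6 lie below every control lung.

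E2F1 activates and E2F8 represses genes of the G1/S boundary. E2f8 was higher in spontaneous tumours, by 0.84 (adjusted p = 0.0232), and had 0.30 (adjusted p = 0.44) in cobalt tumours. E2f8 levels (lowest, median, highest, log2) were 5.09, 5.16 and 5.50 in control lung, 5.27, 5.91 and 6.93 in spontaneous and 4.87, 5.52 and 6.42 in cobalt tumours. That call ended without spontaneous tumour 2 (0.71, adjusted p = 0.0545) or 6 (0.66, adjusted p = 0.0560). E2f1 had 0.10 (adjusted p = 0.428) and -0.02 (adjusted p = 0.915), with levels between 6.43 and 7.11 on all 18 arrays. Of the 2 chromatin genes, Uhrf1, which brings the maintenance DNA methyltransferase to new DNA, was higher in both groups, by 1.46 ± 0.33 (SE, adjusted p = 0.00199) and 1.15 ± 0.33 (SE, adjusted p = 0.0105). Control lung had Uhrf1 at 5.17, 5.61 and 5.74 (lowest, median, highest log2 level), spontaneous tumours at 6.32, 6.93 and 8.03, and cobalt tumours at 5.42, 6.72 and 7.54. No spontaneous tumour overlapped the controls, and cobalt tumour 6 did. Chaf1b, of the histone chaperone CAF-1, did not pass, at 0.71 (adjusted p = 0.057) and 0.67 (adjusted p = 0.0737).

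For further genes the second-brightest probe set of the gene ended a call or changed its size. In spontaneous tumours it gave 0.02 (adjusted p = 0.835) for Pola1, 0.03 (adjusted p = 0.872) for Cdc45, 0.37 (adjusted p = 0.0626) for Dut, 0.22 (adjusted p = 0.331) for E2f8 and 0.15 (adjusted p = 0.384) for Tyms. In cobalt tumours it gave 0.08 (adjusted p = 0.494) for Orc1, 0.29 (adjusted p = 0.0843) for Tyms and -0.05 (adjusted p = 0.819) for Rfc2. With calls kept, it gave 1.40 for Rrm2, 1.27 for Gins2 and 0.73 for Mcm7 in spontaneous tumours, and 1.43 for Mcm6, 0.62 for Mcm7 and 0.43 for Dut in cobalt tumours. The mean of all Cdt1 probe sets gave 1.02 and 0.70, also with calls kept. By the exact permutation test Cdc45 and Gins2 did not pass in spontaneous tumours, and Orc1 and Prim1 did not pass in cobalt tumours.

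The control arrays were all high in Xist and low in Y-linked RNA, the female pattern, and the tumour arrays were mixed. Sex read from these RNAs thus differed between the groups, most between spontaneous tumours and control lung. The comparisons on all arrays do not separate sex from group. On the Xist-high arrays alone, with 4 cobalt and 2 spontaneous tumours left to compare, some calls did not pass, mostly at differences near those on all arrays. In cobalt tumours these were Orc1 (0.28, against 0.27 on all arrays), Mcm6 (0.75, against 0.75), Prim1 (0.79, against 0.70), Tk1 (0.95, against 1.06), Tyms (0.23, against 0.25), Uhrf1 (1.02, against 1.15) and Rfc2 (-0.28, against -0.32), with adjusted p from 0.052 to 0.101. In spontaneous tumours they were Orc6 (0.50, against 0.51), Cdc6 (1.01, against 0.96), Mcm5 (1.16, against 1.17), Cdc45 (0.48, against 0.53), Gins2 (0.77, against 0.67), Prim1 (1.02, against 0.93), Pole (0.81, against 0.61), Tyms (0.21, against 0.27) and E2f8 (0.90, against 0.84), with adjusted p from 0.0593 to 0.233. With the level of Y-linked RNA as a covariate in limma, 22 genes were higher in spontaneous tumours, and 15 were higher and 2 lower in cobalt tumours. The calls lost in spontaneous tumours were those of Cdc45 (0.51, adjusted p = 0.116), Gins2 (0.73, adjusted p = 0.0544), Pole (0.68, adjusted p = 0.0555), Tyms (0.22, adjusted p = 0.0886) and E2f8 (0.81, adjusted p = 0.0897), and Mcm4 was gained (0.65, adjusted p = 0.0191, against 0.37 without the covariate). In cobalt tumours the call of Orc1 was lost (0.27, adjusted p = 0.0692).

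Tumours of a group spread more widely in these genes than control lungs did, as a description. The median SD of the 43 genes was 0.17 in control lung, 0.38 in spontaneous and 0.38 in cobalt tumours, against 0.16, 0.22 and 0.22 over all genes. Averaged over the 43 genes, the difference from the control mean was -0.09 to 0.14 in control lungs. It was 0.39, 0.78, 0.58, 0.39, 0.80 and 1.25 in spontaneous tumours 1 to 6, and 0.70, 0.68, 0.69, 0.07, 0.35 and -0.05 in cobalt tumours 1 to 6. Every spontaneous tumour thus lay above every control lung, and cobalt tumours 4 and 6 lay inside the control range. Spontaneous tumour 6 was the highest of all 18 arrays for 25 of the 43 genes. Without it, 21 genes were higher in spontaneous tumours.

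Cobalt tumours 4 and 6 were not alike. In cobalt tumour 4, 14 genes lay above every control lung and 14 below. Those above included Cdt1, Mcm6, Mcm7, Dbf4, Rfc3, Rfc4, Rpa3, Tk1, Dut and Uhrf1, and those below included Cdc6, Mcm3, Mcm4, Mcm5, Rrm2, E2f1 and E2f8. In cobalt tumour 6, 6 genes lay above (Orc2, Orc6, Dbf4, Rfc3, Rfc4 and Rfc5) and 12 below. The share of all genes outside the control range on a single array is not given here, so the counts for both tumours are descriptions. Mki67, which marks cycling cells, was 6.20 and 6.74 in these tumours, 8.06 to 8.70 in the other 4 of the group, 8.45 to 9.66 in spontaneous tumours and 6.39 to 7.76 in control lung. Mean endothelial marker levels were 8.25 in cobalt tumour 4, within the range of the other tumours, and 10.36 in cobalt tumour 6. Their epithelial means were 12.15 and 11.06. The part of either in these levels was not tested. Without cobalt tumour 4, 16 genes were higher and 2 lower in the cobalt group, and without cobalt tumour 6 the counts were 17 and 2.

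**Figure D4:**
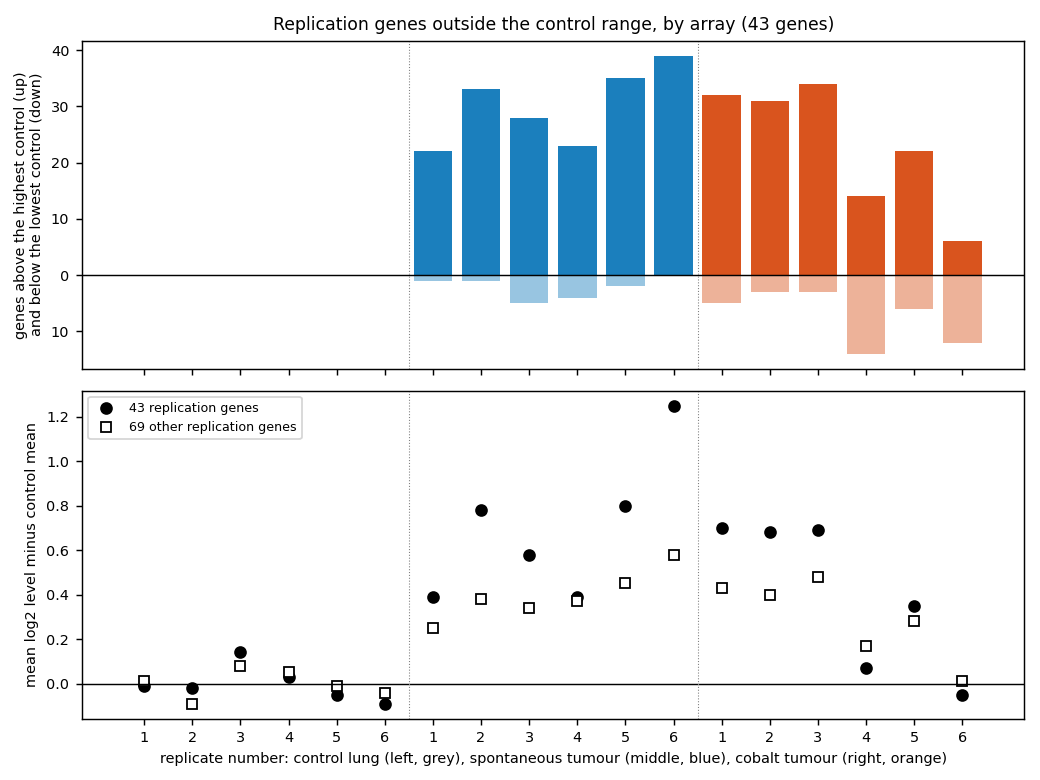
Top, for each of 18 arrays (horizontal axis), how many of 43 replication genes lay above the highest control lung (bars up) or below the lowest (bars down). No share over all genes is given for these counts. Bottom, the mean log2 level minus the control mean for the 43 genes (filled circles) and 69 other replication genes (open squares): spontaneous tumour 6 is highest at 1.25, and cobalt tumours 4 and 6 are at 0.07 and -0.05.

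The 7 markers of proliferation outside replication, which act in mitosis, were compared the same way. Their mean level was 5.76 to 6.30 in control lung, 6.80 to 8.36 in spontaneous and 5.46 to 7.63 in cobalt tumours. In spontaneous tumours 7 of 7 were higher, against 16.4% of all genes, with a median of 1.72. In cobalt tumours 1 of 7 was higher, against 14.7%, with a median of 0.50. Cobalt tumours 4 and 6 had the lowest means of their group, 5.60 and 5.46. Between cobalt and spontaneous tumours 0 of 7 passed (limma, adjusted p from 0.189 to 0.486), with a median of -0.98.

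Between cobalt and spontaneous tumours, 0 of the 43 genes passed, and 0.0824% of all genes did, in either direction. By limma 10 of the 43 had an unadjusted p under 0.05, all lower in cobalt tumours, with a smallest adjusted p of 0.193. An exact permutation test called 0 as well, and 4 had an unadjusted p under 0.05. Still, 40 of 43 differences were below 0, with a median of -0.29 against a median near 0 over all genes. Genes are not independent replicates, and the same arrays enter each of these differences. The median was -0.16 without spontaneous tumour 6, -0.22 without cobalt tumour 4 and -0.21 without cobalt tumour 6. With these arrays left out in turn, 32, 35 and 31 of the 43 differences were below 0.

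Rrm2 had the largest difference between the tumour groups, at -1.32 (95% interval -2.60 to -0.04) for cobalt minus spontaneous. It was -0.82 without spontaneous tumour 6. Next came Tk1 at -0.85 (95% interval -1.56 to -0.15), Mcm5 at -0.71 (95% interval -1.42 to 0.00), Cdc6 at -0.69 (95% interval -1.25 to -0.13) and Gins1 at -0.65 (95% interval -1.09 to -0.21). The Mcm5 difference was -0.47 without cobalt tumour 6. These intervals are not adjusted for the number of genes. The interval was narrower for Tyms, at -0.02 (95% interval -0.18 to 0.14), Fen1, at -0.01 (95% interval -0.25 to 0.24), and Orc6, at 0.02 (95% interval -0.28 to 0.32). For Mcm7 it was -0.05 (95% interval -0.51 to 0.41) and for Rpa3 -0.03 (95% interval -0.51 to 0.45). A p that misses the threshold does not show that these levels were alike. The Tyms probe set was dim, with a mean of 4.63, and the Fen1 probe set was the one marked for cross-hybridising probes. The other Fen1 probe set averaged 8.06 in spontaneous and 7.63 in cobalt tumours.

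**Figure D5:**
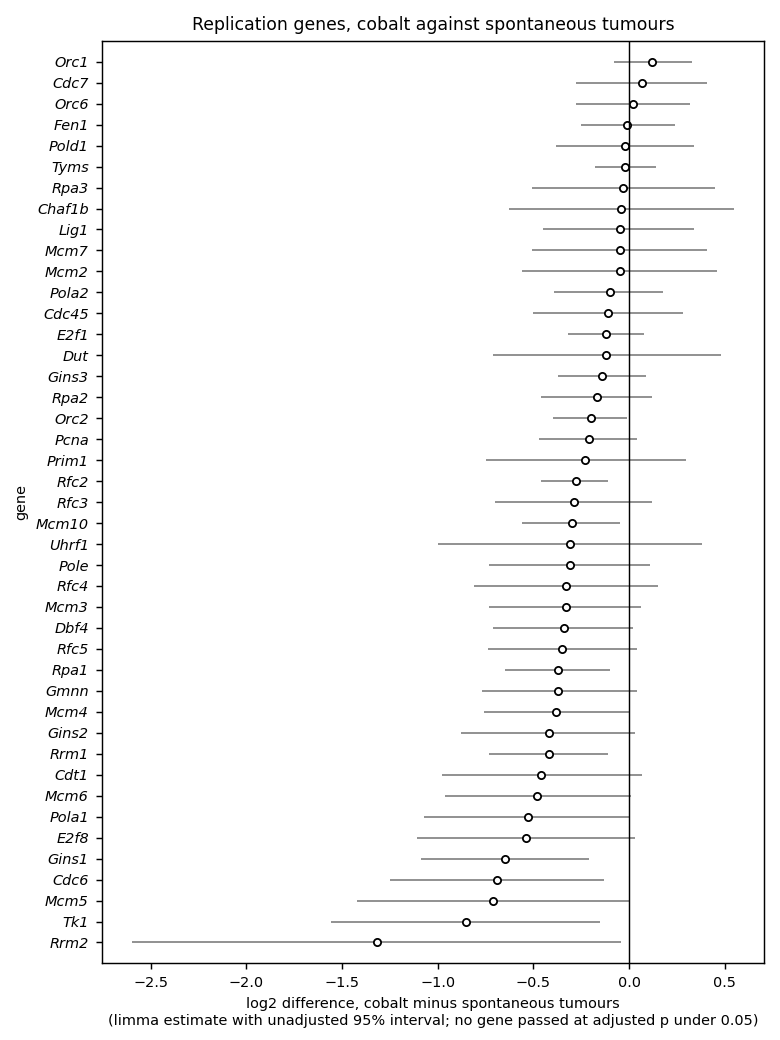
Log2 difference, cobalt minus spontaneous tumours (horizontal axis), of each of 43 replication genes (vertical axis, sorted by the difference), as limma estimates with unadjusted 95% intervals and 6 arrays a group. No gene passed an adjusted p under 0.05, 40 of the 43 estimates lie below 0, and Rrm2 at -1.32 is the lowest.

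A further 69 genes of replication and nucleotide supply, of 72 listed, were counted beside the 43. In spontaneous tumours 32 were higher and 4 lower (16.4% and 18.2% of all genes), with a median difference of 0.37. In cobalt tumours 24 were higher and 5 lower (14.7% and 19.3% of all genes), with a median of 0.23. The median over all genes was -0.03 in both. Between the tumour groups 0 passed by limma, and 6 had an unadjusted p under 0.05. The permutation test, which called 0 of all genes in this comparison, also had 6 at an unadjusted p under 0.05. Top2a, the topoisomerase of dividing cells, had the largest difference in spontaneous tumours, 1.97 (adjusted p = 0.00168), against 0.62 (adjusted p = 0.291) in cobalt tumours. Cdca7, a partner of the chromatin remodeller HELLS, led in cobalt tumours at 2.24 (adjusted p = 0.00227), with 1.45 (adjusted p = 0.0347) in spontaneous tumours. Dctd, which makes dUMP from dCMP, had 1.51 (adjusted p = 0.00158) and 1.41 (adjusted p = 0.00263), and E2f3, an activating E2F, 1.22 (adjusted p = 7.67e-05) and 1.30 (adjusted p = 4.31e-05). Prim2, the partner of PRIM1 in primase, had 1.20 (adjusted p = 0.000878) and 1.44 (adjusted p = 0.000181).

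The genes that fell did not all serve synthesis. Samhd1, whose product breaks down deoxynucleotides, was -0.89 (adjusted p = 0.0249) and -1.13 (adjusted p = 0.00587). Rrm2b, the ribonucleotide reductase subunit that works outside S phase, was -0.48 (adjusted p = 0.0063) and -0.36 (adjusted p = 0.033). Timeless, of the fork protection complex, was -0.75 (adjusted p = 0.00266) and -0.82 (adjusted p = 0.00125), and E2f2, another activating E2F, -0.84 (adjusted p = 0.000963) and -0.93 (adjusted p = 0.000378).

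Of the 22 other nucleotide genes, 14 were higher and 2 lower in spontaneous tumours (16.4% and 18.2% of all genes). In cobalt tumours 13 were higher and 2 lower (14.7% and 19.3% of all genes). Among the 22, the 6 enzyme genes of purine synthesis up to IMP (Ppat, Gart, Pfas, Paics, Adsl and Atic) were singled out after their values were seen. All 6 were higher in both tumour groups, with medians of 0.67 and 0.55. Paics had 1.09 ± 0.16 (SE, adjusted p = 5.96e-05) and 1.04 ± 0.16 (SE, adjusted p = 9.68e-05). Averaged over the 6, cobalt tumour 4 was 0.87 above the control mean, within the 0.54 to 0.92 of cobalt tumours 1, 2, 3 and 5, while cobalt tumour 6 was 0.11 above it. In cobalt tumour 4, then, these purine genes were at the level of its group. The replication genes described at the start were split on that array. There 14 lay below every control lung, including Rrm2, Mcm5 and Cdc6, and 14 lay above every one, including Cdt1, Tk1 and Dut. Whether the purine genes differ from the replication genes as a set was not tested.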

How the data were processed

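RNA of 18 samples, 6 a group by their titles, sources and group labels, was measured on 1-colour Affymetrix 3′ arrays. The values the authors deposited are log2 levels from RMA, per the submitters' processing notes, and its version is not given in the sources used here. RMA in its usual form corrects background, makes array distributions alike and summarises probe sets, so a shift of all genes in 1 direction would be hidden. Of 45101 probe sets, 34945 had 1 gene symbol, and 18193 genes were tested. Each comparison was fitted with limma 3.58.1 in R 4.3.3 (lmFit and eBayes, 1 fit over 18 arrays, two-sided, Benjamini-Hochberg over all genes, threshold 0.05), tested on simulated data. Precision is limited by the number of arrays.

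The members, gene lists and tests were chosen with earlier results of these data known. Every member could be named. By role, those with the largest and smallest differences were given levels by group, and further members were given levels after their values were seen. Of the other replication genes, the 4 largest differences each way among those passing were named. Promoters were searched for letters only. Deviations of same-numbered arrays from their group means had correlations of -0.35 to 0.19. Differently numbered arrays were not compared, so these correlations cannot show whether numbers pair samples. The main fit did not pair samples by number. Alternatives were another normalization, other probe sets, other fits, arrays with Xist above 10, Y-linked RNA as a covariate, and each array left out. A setting without probe sets marked as cross-hybridising was chosen after seeing the data. Chaf1a, 3 further replication genes and 6 markers were not analysed here.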

Additional observations from a re-analysis of the deposited data

Results flagged for a closer look

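In 8 of 129 groups of 6 arrays tested over the 43 genes, 1 array stood apart from the other 5 by Dixon's criterion, which chance alone meets in about 1 group in 20. Spontaneous tumour 6 was high in 4 of them: Rrm2 at 11.12 (the others 7.52 to 8.35), Mcm2 at 10.65 (9.00 to 9.54), Pola1 at 8.05 (6.41 to 6.96) and Pold1 at 8.47 (7.74 to 7.98). Cobalt tumour 4 was low for Gmnn at 7.24 (7.82 to 8.14), and cobalt tumour 6 was low for Tk1 at 5.66 (6.91 to 7.46). In control lung, replicate 2 was high for Fen1 at 10.31 (9.89 to 9.97), and replicate 1 was high for E2f8 at 5.50 (5.09 to 5.21).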

How the results depend on the processing

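Of the 26 members higher in spontaneous tumours, 11 passed under every alternative run and 20 under every single array left out. Of the 18 called in cobalt tumours, 8 and 14 did. Of the 11, Rfc5, Rpa3 and Tk1 have 1 probe set, as do Orc6 and Rpa3 of the 8, so the settings on probe sets could not change their own values. Leaving out 1 array gave 21 to 29 higher and 0 to 1 lower members in spontaneous tumours, 12 to 17 higher in cobalt tumours, and 3 to 5 lower other replication genes in cobalt tumours. The count of lower members in spontaneous tumours was 1 under cyclic loess, array weights, the 12 arrays of the groups compared, the exact permutation test, and without cobalt tumour 6 and control lung 1 together. In cobalt tumours it was 1 with the mean of probe sets, the second probe set or the arrays with Xist above 10, and the last gave 10 higher members. Among other replication genes, the mean of probe sets gave 2 lower in spontaneous and 2 in cobalt tumours, and the Xist-high arrays gave a spontaneous median of 0.46 and 15 higher and 3 lower in cobalt tumours. On the second probe set, Dbf4 and Gins1 reversed in spontaneous tumours, to -0.05 and -0.03, and both of those probe sets are dim. The cause of the other changes was not tested, except that the Xist-high arrays leave fewer samples. With the replicate block, 23 members were higher in spontaneous and 13 in cobalt tumours, and whether the shared numbers pair samples is not known. No detection calls were used, so how far dim genes such as Tyms lie above background is unknown.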
